A study of Mus musculus with 10 samples.

Results

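The serum response of undertranslated RNA in primary mouse embryonic fibroblasts was measured on 4 of the series' 10 arrays, those titled undertranslated RNA, with 2 serum-treated arrays set against 2 starved arrays. The fibroblasts came from mouse embryos of age e14.5 and were C57/BLACK6, ATF1 +/- in all groups, so the starved controls are heterozygous for Atf1 too and no wild-type cells enter the comparison. Every culture was starved for 48 h in 1% dialyzed serum. The serum-treated group then received medium with 10% fetal bovine serum for 2 h, and the starved group received medium with 1% serum for the same time. Both groups were given cycloheximide, which halts elongating ribosomes, at 100 ug per ml for 30 min before lysis. Replicate 2 of each group had in addition been labelled with 4-thiouridine at 200 uM and with 3H-cytidine, and replicate 1 had not. The lysate was spread on a sucrose gradient, and the pool called undertranslated held mRNA with no ribosome, a ribosomal subunit or a single ribosome. Equal fractions of different cultures were combined before hybridization, so each array is a pool, and p-values here measure the spread between pools, which may in part be technical. The 2 pools of a group also differ in labelling, so in fits without the replicate number that spread includes any effect of the label. Polyribosome RNA from the same design (2 against 2 arrays) and cytoplasmic RNA (1 against 1) were used only for comparison. The labels name no cycloheximide for the cytoplasmic cultures, so these also differ from the gradient pools in that treatment. The series asks how mRNA translation and mRNA levels respond early to serum.

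In growing cells most mRNAs carry several ribosomes and sediment as polyribosomes, and the lighter fractions hold free messenger ribonucleoprotein, mRNA with a small subunit waiting to initiate, and monosomes. Growth factors in serum activate kinase pathways that switch on immediate-early genes and also raise initiation, and mRNAs with a 5′ terminal oligopyrimidine tract, such as those of ribosomal proteins and elongation factors, are known for moving from the light fractions into polyribosomes. A level in the light pool therefore reflects both how much of an mRNA the cells hold and what share of it is untranslated. In RNA from whole cultures, fewer cells of a type and less RNA per cell cannot be told apart.

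These 4 arrays were dim. Mean intensity over all probe sets was 39.6 and 49.1 in the starved arrays and 18.2 and 35.1 in the serum-treated arrays, against 311 to 387 on the polyribosome arrays. The arrays carry 19 control probe sets for non-spiked bacterial and yeast sequences, and the brightest of them on each array was taken as its background, which lay between 6.7 and 9.6. Of 12422 ordinary probe sets, 6675 exceeded it on at least 2 of the 4 arrays and were tested, among them 5060 named genes, and 3934 exceeded it on all 4. The filter let in 575 probe sets through the starved arrays alone and 88 through the serum-treated arrays alone. The ratio of the 3′ to the 5′ control probe set of beta-actin, a sign of RNA length after amplification, was 137 and 61.4 in starved and 23.6 and 33.9 in serum-treated RNA. The same ratio for Gapdh was 5.64 and 6.81 in starved and 3.70 and 4.53 in serum-treated RNA. The part of these differences in the results was not tested. Fibroblast markers were present, with 13 of 16 above background on all 4 arrays. Col1a1 stood at 467.1 and 563.3 in starved and at 188.6 and 472.3 in serum-treated RNA. Atf1 has no probe set named for it here, so the genotype could not be checked.

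No probe set passed the test of serum against starved RNA at an adjusted p of 0.05 (limma on quantile-scaled log2 values, Benjamini-Hochberg), which is 0% of 6675. At an unadjusted p of 0.05, 310 probe sets were higher and 428 lower after serum, and the smallest adjusted p was 0.331. The same fit with the replicate number as a block also called 0, with 939 at an unadjusted p of 0.05 and a smallest adjusted p of 0.105. Everything below is therefore given as levels and differences and not as a change that passed a test. Both serum-treated values lay above both starved values for 20.7% of probe sets and below them for 25.4%, so 46.1% did not overlap. Among the 3934 above background on all 4 arrays the lean was the other way, with 1055 above and 891 below. Of those 3934, 47.0% had a difference below 0, beside 53.3% of all probe sets tested, and their median was 0.04. The serum-treated pair was the more variable, with a median replicate SD of 0.41 on the log2 scale against 0.21 for the starved arrays. Without serum-treated replicate 2 the fit called 203 probe sets higher and 459 lower, with the remaining serum-treated array assumed to vary like the starved pair. With all 8 gradient arrays sharing 1 spread, 30 were called higher and 95 lower. With 1 weight per group in that fit, 0 were called. Simulated differences at the size of 2 log2 units were called for 17.9% of the probe sets given one, and those of 3 log2 units for 54.5%. An exact permutation test of 2 against 2 arrays cannot go below 0.333.

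Differences in the 2 replicate numbers had the same sign for 62.8% of probe sets and correlated at r = 0.26 over the 6675 probe sets, which share arrays and scaling and are not independent. Scaling also matters for direction. The median difference of all probe sets tested was -0.06 log2 units after quantile scaling and -0.55 on the deposited values, with the serum-treated arrays the dimmer ones. Values below are quantile scaled within the pool unless called deposited, and ± is the SE of the fit.

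**Figure D1:**
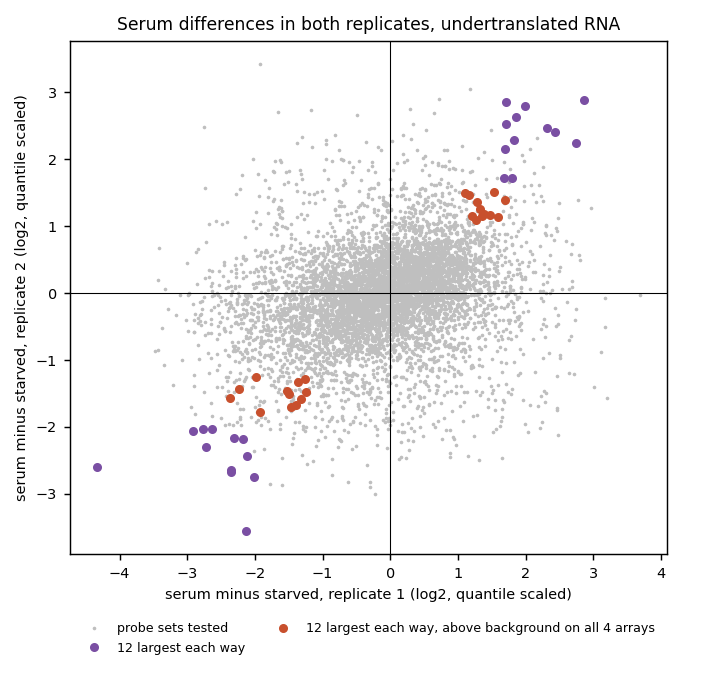
Serum minus starved difference (log2, quantile scaled) of the 6675 probe sets tested in undertranslated RNA, replicate 1 on the horizontal axis and replicate 2 on the vertical axis. The leading genes were chosen for agreement in sign, so they lie in the lower left and upper right corners, and the cloud as a whole is wide, with r = 0.26.

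Among genes above background on all 4 arrays, the largest differences below 0 were those of Rin2 and Snai2. Snai2, the zinc-finger repressor also called Slug, read 354.4 and 363.1 in starved and 38.7 and 60.8 in serum-treated RNA as deposited. Its difference was -1.85 ± 0.28 log2 units (limma adjusted p = 0.331). Rin2, an exchange factor for the endosomal GTPase Rab5, read 138.4 and 126 in starved and 13.9 and 27.6 in serum-treated RNA, a difference of -1.97 ± 0.33. In both genes the starved pair was tight and stood far above the serum-treated pair. Pnrc2, an adaptor of mRNA decapping, read 232.7 and 278.2 against 40.2 and 60.5, a difference of -1.36 ± 0.27. Ppp3ca, a catalytic subunit of calcineurin, read 136.3 and 148.4 against 24.9 and 38, a difference of -1.35 ± 0.29. The other 8 of the 12 largest were the semaphorin and VEGF coreceptor Nrp1, the nuclear pore protein Nup54, the autophagy receptor Nbr1, the spindle-associated Ckap2, the histone chaperone Asf1a, the kinase-like Dipk2a, the proton pump subunit Atp6v0e and the F-box protein Fbxw2. The 12 differences ran from -1.97 to -1.27. In each gene both serum-treated values lay below both starved values, as the choice of genes required. All 12 were also lower on the deposited values, with Snai2 at -2.85 and Rin2 at -2.66. The serum-treated arrays are the dimmer ones there, with a median of -0.55 over all probe sets tested, so that sign adds no support.

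**Figure D2:**
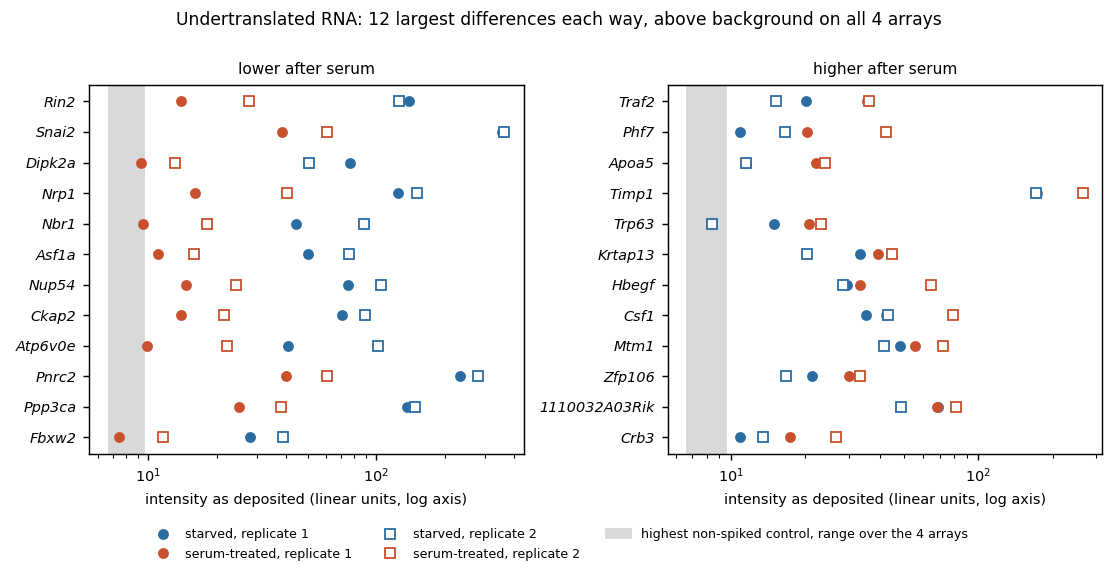
Deposited intensity (log axis) of the 12 genes with the largest difference in each direction among probe sets above background on all 4 arrays, with 2 starved and 2 serum-treated points per gene. Grey marks the range of the background level, 6.7 to 9.6. The lower genes are separated by wide gaps, such as Snai2 at 354.4 and 363.1 against 38.7 and 60.8. Gaps of the higher genes are smaller, and in Csf1 and 1110032A03Rik the groups overlap before scaling. The serum-treated arrays are dimmer as deposited, which widens the gaps of lower genes and narrows those of higher ones. After scaling, the differences ran from -1.97 to -1.27 and from 1.18 to 1.54.

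Genes linked to quiescence and to FoxO factors, which are active when growth factor signalling is low, were the list with the lowest median. Of 18 members tested, 14 were below 0 and 4 above, with a median of -0.76, and 11 had both serum-treated values below both starved values, beside 26% of all genes tested. Below 0, 6 of the 18 had an unadjusted p under 0.05, beside 6.76% of genes, and none was called. The median was -0.94 in replicate 1 and -0.30 in replicate 2. It was -0.41 in polyribosome RNA and -0.74 in cytoplasmic RNA. Gas1, a growth-arrest membrane protein that holds fibroblasts out of S phase, read 623.1 and 653.2 in starved and 91.8 and 102.3 in serum-treated RNA, a difference of -1.62 ± 0.35. Ccng2, the cyclin G2 gene of arrested cells, read 80.9 and 51.5 against 6.1 and 10, a difference of -2.35 ± 0.41, and serum-treated replicate 1 was below its background. Bcl6, a transcriptional repressor, read 66.8 and 65.2 against 15.8 and 17, a difference of -1.31 ± 0.35. In each of the 3 genes the pairs did not overlap, as the rule for naming required. The starved pair was tight in Gas1 and Bcl6 and wider in Ccng2. Txnip, the thioredoxin-binding arrestin, was 0.66 ± 0.34 higher. Foxo4 itself was 0.51 ± 0.35 higher after scaling and -0.41 on the deposited values.

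A forkhead core (TGTTTAC on either strand) was looked for in the RefSeq promoter windows of these genes, from 250 bases before to 50 bases after each annotated start. It was found in 3 of the 16 list members with a window (18.8%), against 4.05% of all 27025 genes in the table. These were Txnip, Mxi1 and Sesn1, and in Sesn1 the match lay past the start. The list was chosen in part for links to FoxO, so this share says nothing about the serum response. The 2 upstream matches are shown with the core in capitals, 5′ to 3′ on the gene's strand, where it reads as its reverse complement (GRCm38.p6).
Txnip, chr3:96557806-96557872, plus strand: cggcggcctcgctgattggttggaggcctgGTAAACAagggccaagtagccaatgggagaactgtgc
Mxi1, chr19:53329445-53329500, plus strand: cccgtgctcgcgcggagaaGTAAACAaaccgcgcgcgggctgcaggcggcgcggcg
Neither of these 2 genes was among the lowest of the list. Sesn1 was lower, at -1.41 ± 0.56, with both serum-treated values below background. Mxi1, a Max-binding antagonist of Myc, was at -0.32 ± 0.44 and stood near background in both groups. None of the 10 genes with a window among the 12 brighter lower genes held the core.

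Among brighter genes that were higher after serum, 3 belong to the list of secreted early-response factors. Timp1, an inhibitor of matrix metalloproteinases, read 169.5 and 171.1 in starved and 173.5 and 264.3 in serum-treated RNA, a difference of 1.32 ± 0.30 after scaling and 0.33 on the deposited values. Csf1, the macrophage growth factor, read 35.4 and 43.4 against 42.3 and 79.5, a difference of 1.30 ± 0.29 and 0.55 as deposited. Hbegf, the heparin-binding ligand of the EGF receptor, read 29.5 and 28.5 against 33.4 and 64.8, a difference of 1.30 ± 0.32 and 0.66 as deposited. Before scaling, serum-treated replicate 1 stood close to the starved pair in Timp1 and within it in Csf1. Replicate 2 stood above the starved pair in both genes. The other 9 were Traf2, an adaptor of TNF receptors, the PHD-finger gene Phf7, the lipoprotein gene Apoa5, the p53 relative Trp63, the keratin-associated Krtap13, the phosphoinositide phosphatase Mtm1, Zfp106, 1110032A03Rik and the polarity gene Crb3. Traf2 read 20.1 and 15.3 in starved and 35.7 and 36.3 in serum-treated RNA, a difference of 1.54 ± 0.42. The 12 differences ran from 1.18 to 1.54, and all 12 were higher on the deposited values too. Probe sets whose name ends in _r_at, Affymetrix's mark for probes picked under relaxed rules, were higher as a class, with a median of 0.33 over 437 against -0.10 over 5211 with a plain name. Phf7 and 1110032A03Rik were read by such probe sets, and Mtm1 by one ending in _f_at. The part of probe design in these values was not tested. A second, plainly named probe set of Mtm1 read 18 and 16.9 in starved and 10.1 and 14 in serum-treated RNA, a difference of -0.13 ± 0.38.

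Over the whole range, the 12 largest differences in each direction were mostly of genes near background in 1 group. Il1rn, the secreted antagonist of the interleukin-1 receptor, had the largest difference of all. It read 179.9 and 276.3 in starved and 4.4 and 27.4 in serum-treated RNA, and its difference was -3.47 ± 0.59 (limma adjusted p = 0.331). Both serum-treated values were far below the starved pair, and 1 was below its background of 7.1. Its RefSeq promoter window holds an AP-1 site (TGANTCA on either strand), as do 8.97% of all windowed genes, shown with the site in capitals.
Il1rn, chr2:24336689-24336755, plus strand: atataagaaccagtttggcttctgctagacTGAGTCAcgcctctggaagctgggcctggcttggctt
Of the 12 brighter higher genes, 1 of the 10 with a window (Mtm1) held this site.

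In the other 11 of the 12 genes with the largest differences below 0, both serum-treated arrays were below background, so the fold is a bound, taken on scaled values. It sets the starved mean against a floor on each serum-treated array, the dimmest level that still clears background there or the gene's own value if larger. Anapc4, a scaffold subunit of the anaphase-promoting complex, read 33.2 and 44.6 against 4.2 and 1.6 and was at least 3.02-fold lower. Adprm, an ADP-ribose phosphatase, read 29.3 and 39.4 against 3.1 and 5.7 and was at least 2.71-fold lower. Arfgap3, a GTPase activator of COPI vesicle coats, read 30.6 and 28.2 against 2.1 and 4.5 and was at least 2.40-fold lower. The endoplasmic reticulum protein Erp29 read 21.3 and 26.6 against 1.1 and 4.1 and was at least 2.01-fold lower. The 4 genes had limma adjusted p-values from 0.331 to 0.387, and their starved pairs stood above background, as the choice of genes required. A second Erp29 probe set, dim on every array, read 7.6 and 3.4 in starved and 9.8 and 3.8 in serum-treated RNA. The rest were the JNK phosphatase Dusp16, Tm2d3, the chromatin remodelling subunit Znhit1, the matricellular Ccn5, Tbcel, the fatty acid activating enzyme Acsl5 and Sltm, with bounds from 1.04-fold for Tbcel to 2.28-fold for Dusp16.

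Of the 12 largest higher differences, 11 had both starved arrays below background. Their folds are bounds on scaled values too. Scaling raises the dimmer serum-treated arrays, so these bounds need not hold for the deposited intensities. Foxn3, a forkhead repressor, read 3.5 and 4.1 in starved and 19.8 and 23 in serum-treated RNA and was at least 3.45-fold higher. Flt1, a receptor of VEGF, read 3.1 and 4.8 against 15.3 and 28.9 and was at least 3.31-fold higher. Msc, a basic helix-loop-helix repressor, read 5.4 and 4.3 against 14 and 22.2 and was at least 2.77-fold higher. None of these passed the test (limma adjusted p from 0.331 to 0.388). Each of the 3 was higher on both serum-treated arrays, as the choice of genes required. The exception on background was Rag1, the V(D)J recombinase subunit, which read 11.7 and 4.9 against 28.5 and 38.7. The rest were Mup3, Galnt6, Syt7, Trpv2, Prrg2, Tle4, Ckm and Cd83, with bounds from 1.57-fold to 2.20-fold. Second probe sets of Foxn3, Flt1 and Rag1 were below the test's filter and lower by their scaled values, at -0.56, -0.73 and -0.81. A second Ckm probe set with a higher mean was below background on all 4 arrays and not tested. It read 4 and 6.3 in starved and 5.8 and 6.5 in serum-treated RNA, a scaled difference of 0.44. Over the 48 leading genes, 25 other probe sets were present, of which 5 were tested, and 2 of those 5 (Erp29 and Mtm1) had the opposite sign, as did 10 of the 20 that were not tested.

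**Figure D3:**
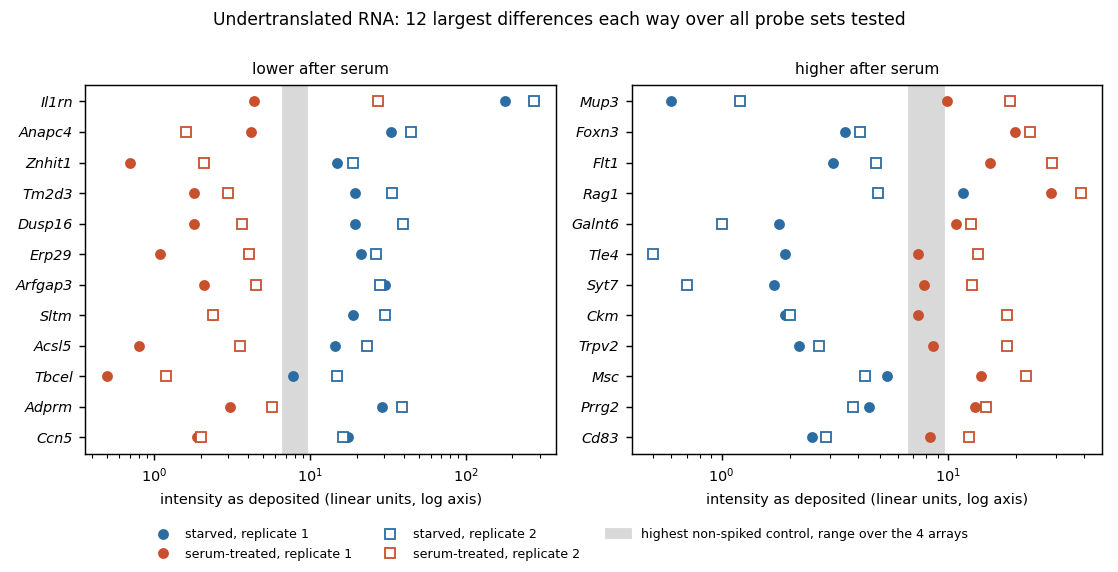
Deposited intensity (log axis) of the 12 genes with the largest difference in each direction over all probe sets tested, with the background range in grey. Apart from Il1rn and Rag1, every gene has 1 group wholly below the background of its arrays, so those values bound a fold and do not measure it.

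Polyribosome RNA served to ask whether a difference was particular to the light pool. The difference between the 2 serum responses was tested over the 8 gradient arrays, and 0 of 6675 probe sets passed (0%; limma with array weights per group), with 520 at an unadjusted p of 0.05 and a smallest adjusted p of 0.347. With both pools simulated at the same mean level, unlike the real ones, differences of 3 log2 units were called for 7.58% in this test. It was run on values quantile scaled over the 8 arrays together, which spreads the dim arrays over the range of the bright ones, so a gap in it need not equal the difference of the 2 values scaled within each pool. On values scaled within each pool, an alternative added after the data were seen, it also called 0, with 434 at an unadjusted p of 0.05. In polyribosome RNA alone, 3 of the same 6675 probe sets rose and none fell (0.0449%). Probe sets that failed the filter on the undertranslated arrays were not tested there. A block for replicate number brought the calls to 86 higher and 42 lower. The 3 called without a block were Serpinb2, Fgl2 and a probe set with no symbol. Serpinb2, a secreted-type inhibitor of plasminogen activators, was at 3.41 ± 0.28 (limma adjusted p = 0.0119). The fibrinogen-like Fgl2 was at 2.80 ± 0.28 (limma adjusted p = 0.0225). In undertranslated RNA Serpinb2 read 4.8 and 10.7 in starved and 7.9 and 22.5 in serum-treated RNA, a difference of 1.04 ± 0.53. Fgl2 read 6.4 and 5.7 against 7.5 and 16.2, a difference of 1.00 ± 0.51.

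Several leading genes had a difference of the same sign in all 3 pools. Snai2 was at -1.82 ± 0.33 in polyribosome RNA and -1.92 in cytoplasmic RNA, beside -1.85 in undertranslated RNA. Gas1 was at -1.26 ± 0.20 and -1.81, Pnrc2 at -1.13 ± 0.28 and -1.75, and Ccng2 at -1.69 ± 0.38 and -2.26. Of these 4, Ccng2 had the largest gap between undertranslated and polyribosome RNA, -0.66 ± 0.69 scaled within each pool and -1.76 ± 0.77 scaled over the 8 arrays (limma adjusted p = 0.845 and 0.641). Timp1 stood at 1.08 ± 0.22 and 1.17, Csf1 at 1.02 ± 0.25 and 1.35, and Hbegf at 1.61 ± 0.25 and 2.14. The gaps of these 3, scaled within each pool, lay between -0.31 and 0.27.

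Other genes had a smaller difference in polyribosome RNA than in undertranslated RNA. Nrp1 read 124.3 and 151.4 in starved and 16 and 40.4 in serum-treated undertranslated RNA, a difference of -1.62 ± 0.33 beside 0.21 ± 0.26 in polyribosome RNA, and the gap between the pools was -1.83 ± 0.47 scaled within each pool and -1.97 ± 0.60 scaled over the 8 arrays (limma adjusted p = 0.611 and 0.467). Nup54 read 75.1 and 104.9 against 14.6 and 24.3, a difference of -1.50 ± 0.31 beside 0.14 ± 0.33, with a gap of -1.64 ± 0.53 and -1.90 ± 0.64 on these 2 scales. Anapc4 was at -0.41 ± 0.22 in polyribosome RNA, and its gap was -2.44 ± 0.50 scaled within each pool and -3.59 ± 0.60 scaled over the 8 arrays (limma adjusted p = 0.549 and 0.347). These gaps did not pass the test, so a difference between the pools was not shown for any of them. The gaps of Dusp16, Tm2d3, Znhit1, Erp29, Arfgap3, Acsl5 and Sltm, all near background in serum-treated RNA, lay between -2.69 and -2.04 scaled within each pool and between -3.75 and -3.14 scaled over the 8 arrays, where the adjusted p was 0.347 for each.

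Of the 12 brighter lower genes, 9 had the same sign in polyribosome RNA and 10 in cytoplasmic RNA. Of the 12 brighter higher genes, 8 and 10 did. Over all probe sets tested, 55.7% had the same sign in polyribosome RNA and 60.9% in cytoplasmic RNA.

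**Figure D4:**
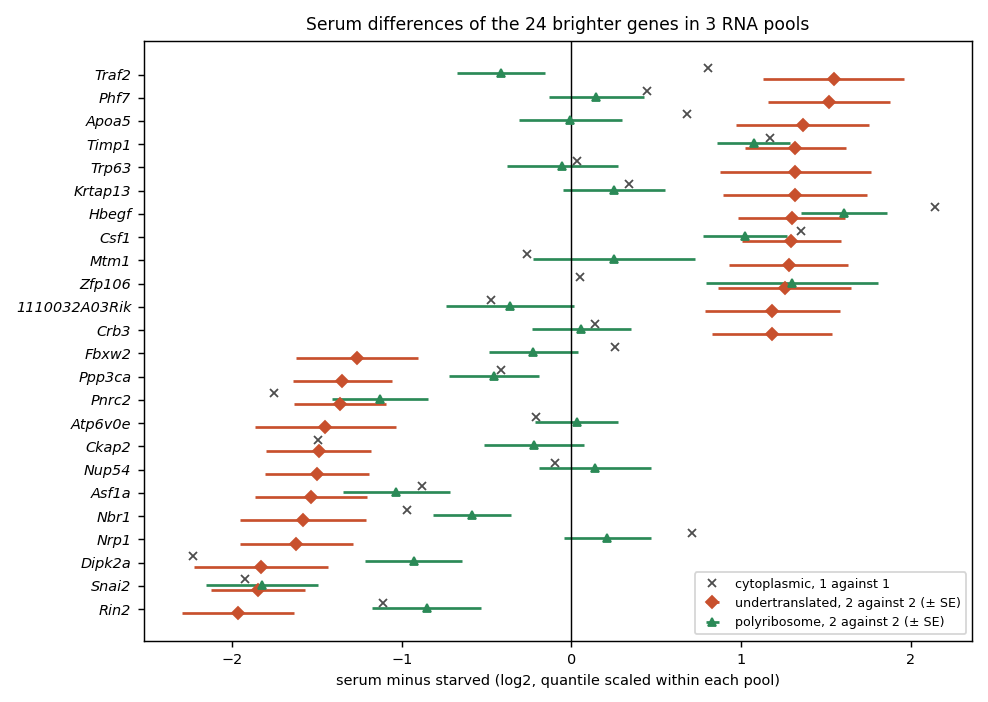
Serum minus starved difference (log2, quantile scaled within each pool) of the 24 brighter genes, with SE bars for undertranslated and polyribosome RNA (2 against 2 arrays) and crosses for cytoplasmic RNA (1 against 1, no error). Snai2, Pnrc2, Csf1, Timp1 and Hbegf lie on the same side of 0 in all pools, and Nrp1, Nup54 and Traf2 lie apart in polyribosome RNA.

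Immediate-early transcription factors, the first genes that serum switches on, showed no common direction in the light pool. Of 24 tested, 10 were above 0 and 14 below, with a median of -0.20 beside -0.07 over all genes, and 0.34 in polyribosome RNA. With 1 array left out the median ran from -0.18 to 0.079. Fos, an AP-1 subunit, read 1256.6 and 1046.5 in starved and 395 and 398.5 in serum-treated RNA, a difference of -0.47 ± 0.39, and without serum-treated replicate 2 it was 0.13. Egr1, a zinc-finger activator, read 847.1 and 1012 against 330.4 and 563.8, a difference of -0.09 ± 0.21, and without serum-treated replicate 2 it was 0.09. Both genes were bright in starved cells. Junb, another AP-1 subunit, read 24.9 and 41.8 against 7.9 and 27.7, a difference of -0.61 ± 0.48, and stood at 0.75 ± 0.30 in polyribosome RNA. Myc, which drives cell growth, read 9 and 13.7 against 4 and 11.7, a difference of -0.31 ± 0.53 beside 1.14 ± 0.31 in polyribosome RNA. In both, the starved and serum-treated values overlapped in the light pool, and without serum-treated replicate 1 the differences were 0.01 for Junb and 0.14 for Myc. The largest members in each direction were Klf10, a TGF-beta-inducible repressor, and the stress-induced Atf3. Klf10 read 294.3 and 346.2 against 254.5 and 374.3, a difference of 1.03 ± 0.28 after scaling and -0.05 as deposited. Atf3 read 217.3 and 475.8 against 49.2 and 139.1, a difference of -0.94 ± 0.33. Id3, an inhibitor of basic helix-loop-helix factors, was at -0.83 ± 0.35.

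Secreted early-response factors were evenly split, with 10 of 20 tested on each side of 0 and a median of -0.02. Beside Timp1, Hbegf and Csf1 at one end and Il1rn at the other, Ptgs2, the inducible cyclooxygenase, read 39.3 and 43.7 in starved and 20.3 and 44.2 in serum-treated RNA. Its difference was 0.17 ± 0.33 after scaling and -0.44 as deposited. Odc1, the rate-limiting enzyme of polyamine synthesis, read 46.7 and 73.7 against 33.5 and 87.2, a difference of 0.62 ± 0.33 after scaling and -0.11 as deposited. The groups overlapped as deposited in both genes. After scaling they overlapped in Ptgs2 and did not in Odc1. Of 19 feedback regulators of signalling, 12 were above 0 and 7 below, with a median of 0.14 and -0.59 as deposited. Rgs16, which shortens G protein signals, was at 0.73 ± 0.30 after scaling and -0.14 as deposited. Zfp36l1, which destabilises AU-rich mRNAs, read 253.1 and 262.2 against 39 and 78.1, a difference of -1.26 ± 0.27. Of 21 genes of the actin cytoskeleton, many of them targets of the serum response factor, 14 were above 0, with a median of 0.16 and -0.47 as deposited. Actb was at 0.70 ± 0.29 and Tpm3 at 0.65 ± 0.28 after scaling, and at -0.22 and -0.19 as deposited.

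Genes of the translation apparatus lay on both sides of 0. Eef1a1, the elongation factor that delivers aminoacyl-tRNA and a classic terminal oligopyrimidine mRNA, read 6374.4 and 7272.4 in starved and 1658.8 and 3846.3 in serum-treated RNA. Its difference was -0.76 ± 0.15 (limma adjusted p = 0.331) and -1.43 as deposited, and the pairs did not overlap, as the rule for naming required. Its rank by brightness was the same on all polyribosome arrays and on both cytoplasmic arrays, where quantile scaling therefore gives a difference of 0. Of 28 ribosomal protein genes, 18 were below 0 and 10 above, with a median of -0.19 in undertranslated RNA, beside -0.07 over all genes, and 0.08 in polyribosome RNA. Both serum-treated values lay below both starved values for 10 of them, beside 26% of all genes, and above them for 3, beside 20.2%. Rps3 read 965.4 and 1836.8 against 223.9 and 753.1, a difference of -0.63 ± 0.28. Rpl8 read 30.6 and 64.2 against 9 and 24.6, a difference of -0.99 ± 0.44. Rpl32 stood on the other side at 1.10 ± 0.37, with dim values of 9.5 and 12.8 against 16.3 and 21.7. Its probe set ends in _r_at and was below background on every polyribosome array. There it read 2.9 and 1.2 in starved and 2.8 and 2.9 in serum-treated RNA. The median of the ribosomal protein list was -0.30 in replicate 1 and -0.11 in replicate 2. None of these genes was called, and probe sets of ribosomal proteins can also detect their many pseudogenes.

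Proteasome subunits had a median of -0.41 over 32 tested, with 22 below 0 beside 54.2% of all genes, and -0.06 in polyribosome RNA. The median was -0.48 in replicate 1 and -0.12 in replicate 2, and -0.016 without serum-treated replicate 1. Psmd7, a subunit of the regulatory lid, read 21.2 and 30.8 in starved and 4.6 and 13.1 in serum-treated RNA, a difference of -1.17 ± 0.45. Psme1, of the interferon-inducible activator, read 11.1 and 18.5 against 1 and 5.5, and both serum-treated values were below background. Psmb10, an immunoproteasome subunit, went the other way at 1.03 ± 0.38, as did the ATPase Psmc4 at 1.52 ± 0.68, whose starved values of 5.1 and 1.8 were below background. Nuclear-encoded subunits of oxidative phosphorylation had a median of -0.30 over 48, with 34 below 0, and 0.06 in polyribosome RNA. Atp5o, a subunit of ATP synthase, read 63 and 98.7 against 17.3 and 38.9, a difference of -0.86 ± 0.33. Cyc1, the cytochrome c1 gene, was at 0.82 ± 0.36 after scaling and -0.23 as deposited, and a second probe set gave -0.38 ± 0.32. Splicing factors had a median of -0.21 over 30, with 25 below 0. Each of these medians was further from 0 in replicate 1 than in replicate 2, and without serum-treated replicate 1 they were -0.13 for oxidative phosphorylation and -0.031 for splicing factors.

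**Figure D5:**
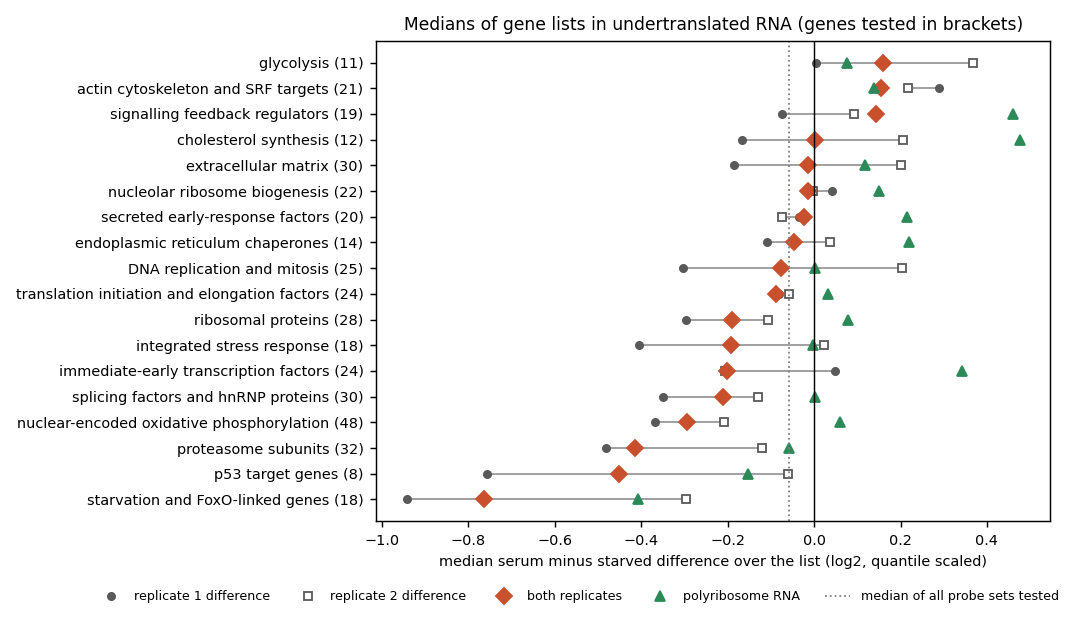
Median serum minus starved difference (log2, quantile scaled) of 18 gene lists in undertranslated RNA, with the medians of each replicate number and of polyribosome RNA. The dotted line is the median of all probe sets tested, -0.06, and the starvation and FoxO-linked list lies lowest at -0.76, with its replicates at -0.94 and -0.30.

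Medians of the remaining lists were -0.45 for 8 p53 targets, with 7 below 0 and 0.042 without serum-treated replicate 1, -0.19 for 18 genes of the integrated stress response, -0.09 for 24 translation factors, -0.08 for 25 genes of DNA replication and mitosis, -0.05 for 14 endoplasmic reticulum chaperones, -0.01 for 22 nucleolar genes, 0.00 for 12 of cholesterol synthesis and 0.16 for 11 of glycolysis. Over the 18 lists, 10 had a median that took the other sign with some array left out. The extracellular matrix list had a median of -0.01 over 30 genes, and its lowest member was the collagen chaperone Serpinh1, which read 13.4 and 21.6 in starved and 0.9 and 3.5 in serum-treated RNA. Vcan, the matrix proteoglycan versican, read 55.7 and 51.6 against 6 and 19.3, a difference of -1.66 ± 0.45.

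Of 101 markers of other cell types, each taken at its probe set with the highest mean, 45 were below background on all 4 arrays and 17 above it on all 4. Among the 17 were Lep, an adipocyte hormone, which read 52.4 and 91 in starved and 32.2 and 90.8 in serum-treated RNA, and the lipopolysaccharide coreceptor Cd14, which read 34.8 and 46.5 against 31.9 and 47.8. Of 19 macrophage markers, Cd14, Ctss and Laptm5 were above background on all 4 arrays and 7 were below it on all 4, among them the defining Ptprc, Itgam and Fcer1g, and 7 were tested. Those 7 had a median of 0.65, with 5 above 0, and 1.49 in polyribosome RNA, and their part in other results was not tested. Summed over the list, intensities were 149 and 157 in starved RNA and 143 and 277 in serum-treated RNA, the highest coming with Ctss at 93.4 in replicate 2. Csf1, above, is the growth factor of these cells. Of 13 endothelial markers, 5 were tested, Flt1 among them. Pecam1, at 19.6 and 33.6 against 10.9 and 30, and Eng were above background on all 4 arrays, and 6 were below it on all 4, among them Cdh5, Tek, Tie1 and Vwf. The epithelial cadherin Cdh1 read 22.2 and 21.8 against 29 and 35.4, and 10 of 16 epithelial markers were below background on all 4 arrays. Ckm is a muscle marker, and the median of 12 muscle markers tested was 0.13.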

How the data were processed

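The authors deposited 1 intensity per array for each probe set, on a linear scale, from Affymetrix arrays, and per the labels' protocols the RNA had been amplified linearly and tagged with biotin. How probes were combined and scaled is not given in the sources used here. Genes were named from the 10833 of 12422 ordinary probe sets that the annotation table pairs with 1 symbol, 396 being paired with several and 1193 with none.

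Values of the 4 undertranslated arrays were transformed to log2(value + 1.5), where 1.5 is the 10th percentile of every value in the table, and quantile normalized over these 4. The pseudocount understates differences of dim genes, and quantile scaling gives each array the same distribution. Probe sets above background on at least 2 arrays were tested with limma 3.58.1 in R 4.3.3 (lmFit, eBayes with a trend, 2 residual degrees of freedom), two-sided, with Benjamini-Hochberg adjustment over all 6675. Polyribosome RNA was fitted alike for the same 6675 probe sets, and the difference of responses over 8 arrays with 1 array weight per group. Cytoplasmic RNA has no replicate and no test.

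The members, 18 gene lists, 8 marker lists and 10 fixed genes were chosen with earlier results of these data known. Named are the 12 largest in each direction by the smaller of both replicate differences, among named genes whose groups do not overlap and whose higher group is above background on both arrays. Up to 3 members of each list in each direction by the same measure and the fixed genes are named too, and of the list members the text gives a part. The 12 each way above background on all 4 arrays, Serpinb2, Fgl2 and Mxi1 were chosen after values were seen. A gene with several probe sets is given by the one with the highest mean among those tested. In the lists, each gene has 1 probe set. Promoter windows are RefSeq's, of build GRCm38.p6. Motifs may overlap.

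Per the labels, replicate 2 of both groups was labelled with 4-thiouridine, which pairs the arrays by number. Across the groups, deviations at the same number had a correlation of 0.0921. Simulated data, in which 200 of 6675 probe sets were changed, served to test each fit. Spreads were the mean real variance of each group at similar brightness, times a random factor, with independent normal noise. For the test between the pools, each probe set had the same mean level in both pools, unlike the real data. Of differences of 1 log2 unit, 1.49% were called in undertranslated RNA. Alternatives were other scalings, pseudocounts, filters and fits, and each array left out.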

Additional observations from a re-analysis of the deposited data

Results flagged for a closer look

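In 8 of the 78 rule-named genes whose values are given, the serum difference had one sign in both replicate numbers of undertranslated RNA and the other sign in both of polyribosome RNA, as did 14.2% of the 6675 probe sets tested. None passed the test of the difference between the pools (limma, 0 of 6675), and the genes were picked out by sign alone. Foxn3 was at 2.50 in undertranslated and -0.76 in polyribosome RNA, with an adjusted p of 0.413 for the difference (limma), and its starved undertranslated values are below background. Ckm was at 2.12 and -0.66, also from starved values below background. Traf2 was at 1.54 and -0.41, with an adjusted p of 0.447 for the difference (limma). Psmc4 was at 1.52 and -0.97, with starved values below background. Cyc1 was at 0.82 and -0.25, and at -0.23 in undertranslated RNA as deposited. Id3 was at -0.83 and 0.27. Junb was at -0.61 and 0.75, and Myc at -0.31 and 1.14, both with values that overlap between the groups in undertranslated RNA.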

How the results depend on the processing

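The count of 0 called probe sets in undertranslated RNA held under the other scalings, pseudocounts, filters, the fit without a trend, the replicate block, 1 probe set per gene and plainly named probe sets only, the last chosen after seeing the data. It was 125 with all 8 arrays sharing 1 spread, and 0 to 662 with 1 array left out, 662 being without serum-treated replicate 2. The test between the pools also called 0 in its other settings, among them scaling within each pool, added after seeing the data, and 0 to 998 with 1 array left out and no weights, 998 without serum-treated undertranslated replicate 2 and 11 without replicate 1. Polyribosome calls were 3, 2 as deposited, 4 with median centring, 128 with the replicate block and 0 to 12 with 1 array left out. The block changed no other count of calls. Of 80 genes followed, 68 kept their sign in every setting that gave a value. As deposited, Klf10 was at -0.048, Rgs16 -0.14, Foxo4 -0.41, Tpm3 -0.19, Actb -0.22, Cyc1 -0.23, Odc1 -0.11 and Ptgs2 -0.44. Scaled by spiked controls these were -0.0015, -0.10, -0.36, -0.14, -0.18, -0.18, -0.067 and -0.40. With median centring Foxo4 was at -0.18, Cyc1 -0.0038 and Ptgs2 -0.22. With 1 array left out, Fos ran from -1.05 to 0.13, Egr1 from -0.26 to 0.092 and Ptgs2 from 0.38 to -0.022, the last value of each being without serum-treated replicate 2. Junb ran from -1.22 to 0.0077 and Myc from -0.75 to 0.14, the last values being without serum-treated replicate 1. The cause of these moves was not tested. The starvation list's median stayed below 0 in all 20 settings, from -1.25 to -0.48. The signalling feedback and actin medians were below 0 in 3 of 20. Of these genes, Myc and serum-treated replicate 1 of Junb read near background.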

Other observations

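Some bright probe sets with no gene symbol in the annotation were higher after scaling, and less so as deposited. Probe set 98501_at read 194.4 and 341.3 in starved and 240.7 and 465.9 in serum-treated undertranslated RNA, a difference of 1.46 ± 0.24 (limma adjusted p = 0.331) and 0.38 as deposited, where the groups overlap, and was at 0.74 ± 0.16 in polyribosome RNA. Probe set 94027_at read 240.3 and 257.9 against 222.8 and 396, a difference of 1.30 ± 0.25 and 0.25 as deposited, and was at 1.64 ± 0.39 in polyribosome RNA.

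The control probe set for the B2 repeat, a short interspersed element that RNA polymerase III transcribes and that also lies in many mRNAs, stayed bright on the dim arrays. It read 7182 and 7798 in starved and 5669 and 8939 in serum-treated undertranslated RNA, where mean intensity was 18.2 to 49.1, and 7204 to 9201 on the polyribosome arrays, where mean intensity was 311 to 387. A second B2 control read 258.7 and 372.3 in starved and 193 and 502.9 in serum-treated RNA, a scaled difference of 1.07 and 0.01 as deposited. The B1 control read 751.3 and 958 against 398.3 and 716.3, a scaled difference of 0.46 and -0.67 as deposited.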
